A study of Mus musculus with 4 samples.

Results

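The pan-endothelial identity genes are 10 genes that mark blood vessel endothelium and endocardium: Pecam1, Cdh5, Emcn, Esam, Cldn5, Erg, Plvap, Sox7, Sox17 and Sox18. They were taken by symbol from a table of 23337 gene rows, and all 10 had a row and passed the low count filter that left 14316 genes for testing. The RNA came from cardiac cushions of C57BL/6 mouse embryos of embryonic day 14.5 and made up 4 libraries, 2 labelled wildtype and 2 labelled Nfatc1Cre;Brg1F/F mutant. In the mutants both copies of Brg1, the chromatin remodelling ATPase encoded by Smarca4, are flanked by loxP sites and are cut by a Cre under Nfatc1 control, which acts in the endocardium. Cushions of the outflow tract and atrioventricular canal were dissected by the GFP of a Cre reporter. The labels do not say which alleles the wildtype littermates carried or how many embryos a library held, so p-values measure the spread of these libraries only, part of which may be technical.

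Endothelial cells line vessels and, as endocardium, the inside of the heart. In the cushions part of the endocardium turns into mesenchyme and loses its cell contacts, while the rest stays as the lining of the growing valve. Endothelial identity is held by transcription factors of the ETS family, such as ERG, and of the SOXF group, SOX7, SOX17 and SOX18, which share a DNA-binding HMG box and act on genes of junctions and surface proteins. VE-cadherin, PECAM-1, ESAM and claudin-5 are proteins of endothelial cell contacts, and endomucin and PLVAP are glycoproteins of the cell surface.

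RefSeq promoter sequences on the GRCm38.p6 build matched 3 of the 10 genes, Emcn, Cldn5 and Erg. Those of Emcn and Cldn5 are shown because these genes differed most between the pairs of libraries described further on. Each run is the 250 bases before the start annotated by RefSeq, in the direction of transcription. The GENCODE start of Emcn used for its position lies inside the window, so that the last 11 bases of that run belong to the gene by GENCODE; for Cldn5 there are 0 such bases. Capitals mark AGGAAG, a sequence with the GGAA core that ETS factors bind, and AACAAT, a form of the SOX-binding sequence, on either strand. The Emcn window, on the plus strand, lies at chr3:137340828-137341077, and the Cldn5 window, also on the plus strand, at chr16:18776597-18776846.
Emcn: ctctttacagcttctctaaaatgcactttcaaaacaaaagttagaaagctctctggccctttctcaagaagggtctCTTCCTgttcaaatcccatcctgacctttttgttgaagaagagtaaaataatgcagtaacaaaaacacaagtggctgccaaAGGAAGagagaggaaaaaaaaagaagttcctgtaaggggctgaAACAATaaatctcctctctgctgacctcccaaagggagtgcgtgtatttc
Cldn5: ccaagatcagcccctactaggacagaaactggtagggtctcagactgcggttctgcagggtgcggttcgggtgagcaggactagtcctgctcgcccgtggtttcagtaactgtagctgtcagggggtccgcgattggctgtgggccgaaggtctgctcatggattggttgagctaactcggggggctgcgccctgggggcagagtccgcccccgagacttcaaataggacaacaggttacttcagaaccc
The Emcn window held AGGAAG 2 times and AACAAT 1 time, with no overlap between them, and the Cldn5 window held neither. Among 32851 promoter windows of the same length, 29.5% held AGGAAG and 9.42% held AACAAT on at least 1 strand. A match of letters is a description of the window and not a measured binding site.

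Each library had between 14104458 and 22426537 reads in genes. Levels are given as CPM, the reads of a gene scaled to the library size, and values of a genotype stand in the order of replicates 1 and 2. Mutant replicate 2 stood apart in sex-linked transcripts: 4 Y-linked genes had 1131 to 3384 reads there and at most 28 reads elsewhere, and Xist was at 13.3 CPM there and at 2047 to 2659 CPM elsewhere. Without it the log2 fold change (mutant over wildtype) of Sox17 went from -0.11 to -0.34, that of Esam from -0.28 to -0.41 and that of Cdh5 from 0.012 to 0.067, and Emcn and Cldn5 changed as given with those genes. Smarca4, the targeted gene, was at 251 and 231 CPM in the wildtype libraries and at 282 and 239 CPM in the mutant ones (edgeR adjusted p = 0.979). Counts over the whole gene hold transcripts outside the deleted part and from cells outside the Cre lineage, so they do not check the deletion. Of 18 cushion mesenchyme markers 18 passed the low count filter, with a summed level of 10330 to 11883 CPM. Passing that filter does not check the cushion label, as 25 of 25 cardiomyocyte markers passed it too. Cardiomyocyte markers summed to 85180 and 76474 CPM in the wildtype libraries, against 67284 and 73654 CPM in the mutant ones, lower in both mutant libraries. Of the 25, 22 had negative log2 values, and edgeR called 0, with 0 higher and 5 lower by unadjusted p. Over all 14316 genes tested, 7235 values were negative and 7081 positive. Between the libraries numbered 1, 3 of the 25 were higher in the mutant, with a median log2 difference of -0.34. Between those numbered 2, 14 were higher, with a median of 0.0066. The blocked fit described further on called 1, DESeq2 2, the likelihood ratio test 1 and limma-voom 0. Erythroid markers summed to 838 and 762 CPM for wildtype, and 1040 and 845 CPM for mutant, higher in both mutant libraries. Of the 14, 13 were tested and 12 had positive values; edgeR called 1 higher, the blocked fit 5, DESeq2 3, the likelihood ratio test 5 and limma-voom 1. The part of these cells in the endothelial values was not tested.

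The summed level of the 10 endothelial genes overlapped between the genotypes, with genes on both sides. Summed over the 10, the wildtype libraries held 615 and 618 CPM and the mutant libraries 612 and 627 CPM, so the mutant range enclosed the wildtype one. Cdh5 and Pecam1 made up 68.9% of that sum. Each gene was also left out in turn, a step added after the data were seen: without Pecam1 the sum was 442 and 445 CPM for wildtype, and 411 and 429 CPM for mutant, both mutant libraries below both wildtype ones. Without Esam or without Sox7 both mutant libraries lay above, and without any of the other 7 genes the genotypes overlapped. The number of endothelial cells and the amount of RNA per cell cannot be told apart in such bulk samples. By edgeR's quasi-likelihood test with Benjamini-Hochberg adjustment over all genes, 0 of the 10 passed an adjusted p of 0.05, against 0.0629% of all genes tested. At an unadjusted p under 0.05 there was 1, Plvap, with a lower value in the mutant; 5.78% of all genes were under that p, and 1.90% were so with a lower value. DESeq2 (0.442% of all genes called), the edgeR likelihood ratio test (1.19%) and limma-voom (0.0489%) also called 0 of the 10. So did a fit that took same-numbered libraries as pairs through a replicate block, in which 0.887% of all genes passed. The median log2 fold change over the 10 was -0.12, and over all genes tested -0.0027, with 3 of the 10 values above zero and 7 below. The authors' deposited table held rows for 9 of the 10, of which 0 were past its adjusted p of 0.05.

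**Figure D1:**
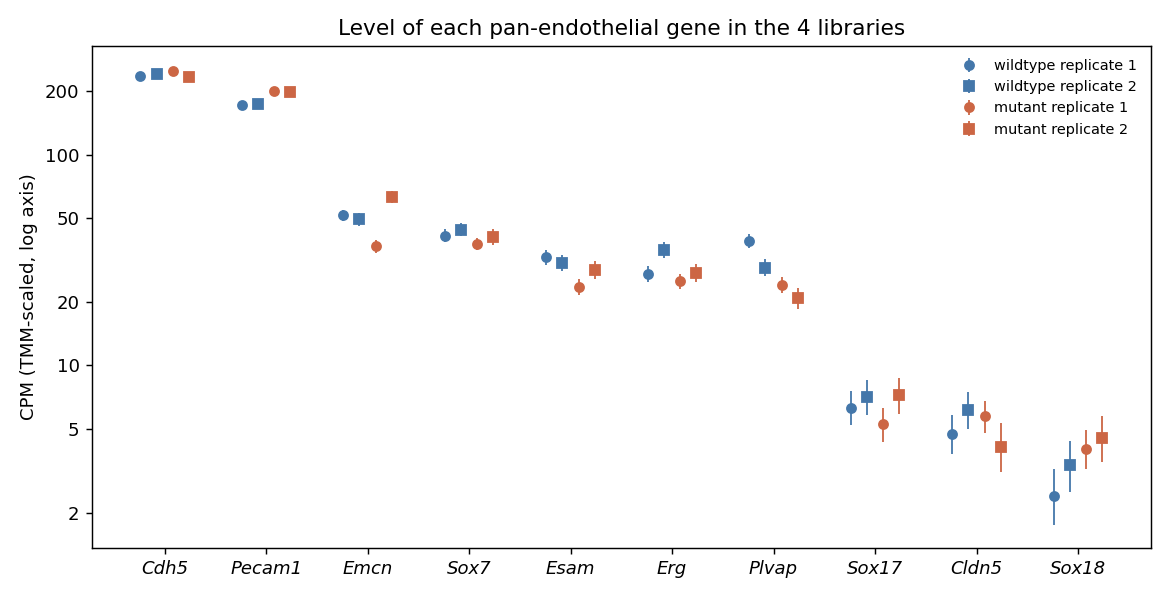
Level of the 10 genes in each of the 4 libraries as TMM-scaled CPM on a log axis, with bars for the 95% Poisson interval of the read count, ordered by mean level; blue is wildtype, orange is mutant, circles are replicate 1 and squares replicate 2. The levels run from 2.40 CPM for Sox18 to 249 CPM for Cdh5, and Plvap lies lower in both mutant libraries than in both wildtype libraries.

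Levels of the 10 genes were compared per kilobase of exon (CPM per kb, exon lengths of GENCODE M21 on mm10). Cdh5 stood highest at 57.1 ± 1.67 CPM per kb (SD, n = 4 libraries), and Pecam1 followed at 29.9 ± 2.51 CPM per kb. Plvap, at 14.2 ± 4.001 CPM per kb, and Sox7, at 12.4 ± 0.788 CPM per kb, had ranges that overlapped over the libraries. Esam at 10.05 ± 1.34, Emcn at 9.27 ± 2.00 and Erg at 8.30 ± 1.30 CPM per kb also overlapped, each with the next. Cldn5 lay below them at 3.65 ± 0.651 CPM per kb. Sox18 at 2.20 ± 0.566 and Sox17 at 1.35 ± 0.189 CPM per kb were lowest and overlapped. The highest gene was thus 42.2-fold above the lowest per length, and of the SOXF genes Sox7 was 9.18-fold above Sox17.

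**Figure D2:**
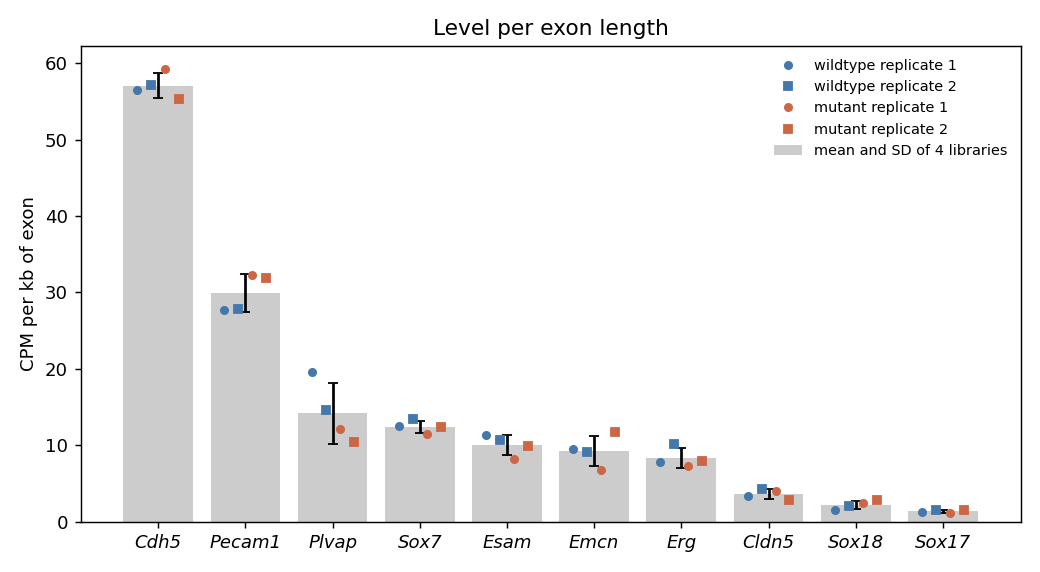
Level of each gene per kb of exon; grey bars are the mean of the 4 libraries from zero, black lines the SD, and points the single libraries (blue wildtype, orange mutant). Cdh5 at 57.1 and Pecam1 at 29.9 CPM per kb stand apart from the other 8 genes, whose means lie between 1.35 and 14.2 CPM per kb.

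The genes of endothelial cell contacts did not pass the threshold, and the sign of the difference varied. The 95% interval of the fold change was widest for Cldn5, at 0.597 to 1.40, and is given with each gene. Differences inside these intervals were not excluded. Cdh5 (chromosome 8, 104101625 to 104144511) encodes VE-cadherin, the adhesion protein of endothelial adherens junctions. The wildtype libraries gave 237 and 240 CPM and the mutant libraries 249 and 232 CPM. The mutant libraries lay on either side of both wildtype libraries, and the fold change was 1.01 with a 95% interval of 0.834 to 1.22 (edgeR adjusted p = 0.995). Its SD over the 4 libraries was 0.0421 on the log2 CPM scale, the lowest of the 10, where the median over all genes tested was 0.182. A change of Cdh5 inside that interval was not excluded by these libraries. The interval is not adjusted for the number of genes tested and is no limit of detection.

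Pecam1 (chromosome 11, 106654217 to 106750628) encodes PECAM-1, or CD31, an immunoglobulin-domain protein of endothelial contacts that platelets and leukocytes carry too. Its level was 172 and 173 CPM in the wildtype libraries, against 201 and 199 CPM in the mutant ones. Both mutant libraries were above both wildtype libraries, a pattern of 17.0% of all genes tested. The fold change was 1.16 (95% interval 0.960 to 1.39), which did not pass (edgeR adjusted p = 0.941). Markers of leukocytes moved in the same direction: 4 of 18 tested rose by edgeR and 0 fell, 8 were called with the replicate block, 6 by DESeq2, 10 by the likelihood ratio test and 2 by limma-voom, and their sum went from 229 and 226 CPM to 377 and 403 CPM. Ptprc, which encodes the leukocyte phosphatase CD45, rose from 6.71 and 7.51 CPM to 29.4 and 26.1 CPM (edgeR adjusted p = 0.0119). Mrc1, also on the leukocyte list, was at 59.4 and 61.8 CPM for wildtype, and 64.0 and 77.3 CPM for mutant. It did not pass (edgeR adjusted p = 0.954). Of the megakaryocyte and platelet markers 9 of 14 could be tested, of which edgeR called 0, with 1 higher and 0 lower by unadjusted p; DESeq2 and limma-voom called 0 and the likelihood ratio test 1. The sum of the 14 was 25.6 and 24.7 CPM in the wildtype libraries, against 29.6 and 30.7 CPM in the mutant ones. Pf4, platelet factor 4, stood at 3.09 and 2.59 CPM against 2.55 and 2.68 CPM. Of the leukocyte and megakaryocyte markers 0 were without reads in all libraries. The part of blood cells in the Pecam1 values was not tested.

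Esam (chromosome 9, 37528078 to 37538319) encodes an endothelial adhesion molecule of tight junctions. Wildtype levels were 32.6 and 30.6 CPM, and mutant levels 23.6 and 28.4 CPM. Both mutant libraries were below both wildtype libraries, as in 16.3% of all genes tested, by a small margin in pair 2. The fold change was 0.821 (95% interval 0.632 to 1.07, edgeR adjusted p = 0.944). Its log2 value of -0.28 became -0.16 without mutant replicate 1 and -0.41 without mutant replicate 2.

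Cldn5 (chromosome 16, 18776847 to 18778262) encodes claudin-5, the main claudin of endothelial tight junctions, in a single exon. Its reads were few, from 58 to 130 per library. These came to 4.74 and 6.12 CPM for wildtype, and to 5.72 and 4.10 CPM for mutant. The mutant value was higher than its same-numbered wildtype value by 0.27 on the log2 scale in pair 1, and in pair 2 the difference was -0.57. The groups overlapped, and the fitted fold change was 0.915 (95% interval 0.597 to 1.40, edgeR adjusted p = 0.985). Its log2 value of -0.13 became 0.061 without wildtype replicate 2 and 0.085 without mutant replicate 2.

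The surface glycoprotein genes Plvap and Emcn varied more between libraries than the junction genes did, with SDs of 0.391 and 0.321 on the log2 CPM scale over the 4 libraries. Plvap (chromosome 8, 71497765 to 71511752) encodes the protein of the diaphragms that span endothelial fenestrae and caveolae. The wildtype libraries gave 38.98 and 29.03 CPM and the mutant libraries 24.03 and 20.76 CPM. All mutant values were below all wildtype values, and the wildtype libraries differed from each other by more than the lower wildtype library did from the higher mutant one. The fold change was 0.659 (95% interval 0.489 to 0.888) and the log2 fold change -0.60 ± 0.19 (SE), with an unadjusted p of 0.0115 and an edgeR adjusted p of 0.547. It ranked 299 of 14316 genes by p and did not pass. The authors' deposited table gives a log2 fold change of -0.59 with an adjusted p of 0.307. Without mutant replicate 1 Plvap passed, at -0.72 and an adjusted p of 0.0388, in a fit that called 1.24% of all genes. When wildtype replicate 1, wildtype replicate 2 or mutant replicate 2 was left out instead, the log2 value became -0.37, -0.80 and -0.50, and none of these 3 passed (edgeR adjusted p from 0.164 to 1.00).

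A ratio to Cdh5 reads within a library does not depend on the scaling between libraries. Per 100 Cdh5 reads there were 16.4 and 12.1 Plvap reads in the wildtype libraries, and 9.64 and 8.93 in the mutant ones. Against the summed level of 29 other endothelial surface and signalling genes, Plvap came to 1.497% and 1.09% for wildtype, and 0.956% and 0.823% for mutant. On both measures the mutant values were the lower ones. Both use the same Plvap reads, and Cdh5 ranged only from 232 to 249 CPM, so they are no separate support.

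Emcn (chromosome 3, 137341067 to 137432185) encodes endomucin, a sialomucin of venous and capillary endothelium and of endocardium. Wildtype levels were 51.5 and 49.2 CPM, and mutant levels 36.7 and 63.1 CPM. The wildtype libraries lay close together and the mutant libraries fell on either side of them. Within pairs the mutant differed from wildtype by -0.49 on the log2 scale in pair 1 and by 0.36 in pair 2, so that the fitted fold change was 0.987 (95% interval 0.690 to 1.41, edgeR adjusted p = 0.996). Without mutant replicate 1 the log2 fold change was 0.32 (adjusted p = 0.937), and without mutant replicate 2, the library with Y-linked reads, it was -0.45 (adjusted p = 0.194). Counted against 100 Cdh5 reads, Emcn had 21.7 and 20.5 reads in the wildtype libraries, and 14.7 and 27.2 in the mutant ones. With 1 library per genotype in a pair, the difference between the pairs has no test.

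**Figure D3:**
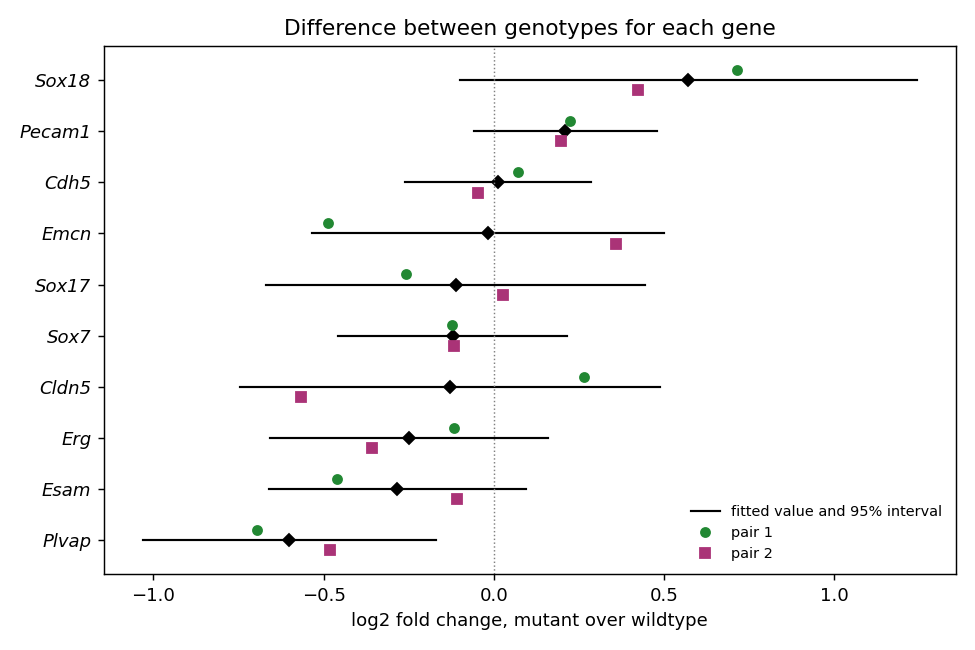
Log2 fold change of each gene, mutant over wildtype: black diamonds and lines are the edgeR value and its 95% interval over 4 libraries, green circles the difference within pair 1 and purple squares that within pair 2. The interval of Plvap, -1.03 to -0.17, is the one that does not reach zero before adjustment, and Emcn, Cldn5, Sox17 and Cdh5 have their pairs on opposite sides of zero.

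Of the transcription factors, Erg, Sox7 and Sox17 had values below zero and Sox18 one above, and 0 of the 4 passed. Erg (chromosome 16, 95359169 to 95586593), the ETS factor that keeps endothelial genes active, was at 27.2 and 35.3 CPM in the wildtype libraries and at 25.04 and 27.5 CPM in the mutant ones. Wildtype replicate 2 was the high library and the other 3 lay between 25.04 and 27.5 CPM. The fold change was 0.841 (95% interval 0.634 to 1.12, edgeR adjusted p = 0.962), and the log2 value of -0.25 became -0.050 without wildtype replicate 2 and -0.42 without wildtype replicate 1. Sox7 (chromosome 14, 63943673 to 63950732), a SOXF factor of early endothelium, was at 41.2 and 44.1 CPM in the wildtype libraries and at 37.8 and 40.7 CPM in the mutant ones. Both mutant libraries were below both wildtype libraries, by a narrow margin between mutant replicate 2 and wildtype replicate 1, and the fold change was 0.919 (0.728 to 1.16, adjusted p = 0.979). Its log2 value of -0.12 became -0.069 without mutant replicate 1 and -0.073 without wildtype replicate 2.

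Sox17 (chromosome 1, 4490931 to 4497354), a SOXF factor of arterial endothelium and of endoderm, had 102 to 119 reads per library. Its level was 6.28 and 7.07 CPM for wildtype, and 5.24 and 7.20 CPM for mutant, with the mutant libraries as the lowest and the highest. The fold change was 0.925 (95% interval 0.629 to 1.36, edgeR adjusted p = 0.985). An annotated transcript on the other strand shares 16.8% of its exon bases, and without a known strand setting reads of that transcript cannot be told apart from its own.

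Sox18 (chromosome 2, 181669836 to 181671640), a SOXF factor of vessel and lymphatic development, had the fewest reads, 45 and 53 for wildtype, and 91 and 64 for mutant. Its level was 2.40 and 3.34 CPM in the wildtype libraries, against 4.01 and 4.52 CPM in the mutant ones. Both mutant libraries were above both wildtype libraries, but the 95% Poisson interval of wildtype replicate 2, 2.51 to 4.38 CPM, overlapped those of both mutant libraries. The fold change was 1.49 (95% interval 0.933 to 2.37), with an unadjusted p of 0.0867 and an edgeR adjusted p of 0.924. Within pairs the log2 difference was 0.71 in pair 1 and 0.42 in pair 2, and leaving out single libraries moved the fitted value of 0.57 between 0.35 without wildtype replicate 1 and 0.82 without wildtype replicate 2. Per 100 Sox7 reads there were 5.82 and 7.58 Sox18 reads in the wildtype libraries, and 10.6 and 11.1 in the mutant ones. With Sox18 higher and Sox7 lower in both mutant libraries, this order was fixed beforehand and adds no support. Sox17 reads per 100 Sox7 reads overlapped, at 15.3 and 16.0 for wildtype, and 13.9 and 17.7 for mutant.

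Of the 10 genes, 5 had groups that did not overlap, 2 higher and 3 lower in the mutant, where 33.2% of all genes tested showed this in either direction. With 2 libraries against 2, an exact permutation test of a single gene could not go below a p of 0.33.

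Genes from lists of other endothelial, junction and endocardial genes were counted in the same fits. Not all of them are confined to the endothelial lineage, and the lists were not compared with each other by a test. By an unadjusted edgeR p under 0.05, 555 of all 14316 genes tested were higher in the mutant and 272 lower. Of 29 other endothelial surface and signalling genes, edgeR called 0, with 1 higher and 4 lower by that p and a median log2 fold change of -0.01. DESeq2 and the likelihood ratio test called 2 each, limma-voom 0, and the blocked fit 1, Mmrn2. Mmrn2, a matrix glycoprotein of vessels, was at 79.0 and 71.4 CPM in the wildtype libraries and at 41.4 and 41.0 CPM in the mutant ones. Its adjusted p was 0.0850 by edgeR and 0.0112 in the blocked fit. The genes of highest level were Cd93, an endothelial C-type lectin receptor, at 356 and 367 CPM for wildtype, and 258 and 269 CPM for mutant (adjusted p = 0.374), and Tek, the angiopoietin receptor, at a log2 fold change of 0.11 (adjusted p = 0.979). The sum over these 29 genes was 2603 and 2662 CPM for wildtype, and 2514 and 2523 CPM for mutant, with both mutant libraries below both wildtype libraries. This was no shift of the whole list, as 13 of the 29 values were above zero and 16 below. Cd93 is part of that sum, which was not recomputed with single genes left out. The wildtype and mutant means were 361 and 263 CPM for Cd93, and 2633 and 2519 CPM for the sum. The order of the sums can thus rest on Cd93 alone and is no property of the list.

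Of 23 tested endothelial transcription factors outside the 10 genes, edgeR called 0, with 2 higher and 0 lower by unadjusted p, and the block and the other tools called 0. Their median log2 fold change was 0.04, with Mef2c, a MADS-box factor, at 0.05 and Ets1, an ETS factor, at 0.13. Of 24 junction genes edgeR called 0, with 0 higher and 2 lower by unadjusted p, and the block and the other tools called 0. The median was 0.02, with beta-catenin, Ctnnb1, at 0.07 and alpha-catenin, Ctnna1, at 0.0061. Of 16 further endocardial genes edgeR called 0, with 3 higher and 1 lower by unadjusted p; limma-voom called 0, DESeq2 1, the likelihood ratio test 2, and the blocked fit 1, Npr3. Npr3, the natriuretic peptide clearance receptor, was at 243 and 229 CPM in the wildtype libraries and at 124 and 132 CPM in the mutant ones. Its adjusted p was 0.0654 by edgeR and 0.00646 in the blocked fit. Cdh11, a mesenchymal cadherin, and Heg1, a junction receptor of endocardium, the most abundant of these endocardial genes, stood at log2 values of -0.09 and 0.38 (edgeR adjusted p 0.979 and 0.781). Nfatc1, the gene that drives the Cre, was at 44.3 and 55.2 CPM in the wildtype libraries and at 52.99 and 34.5 CPM in the mutant ones, with overlapping groups.

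**Figure D4:**
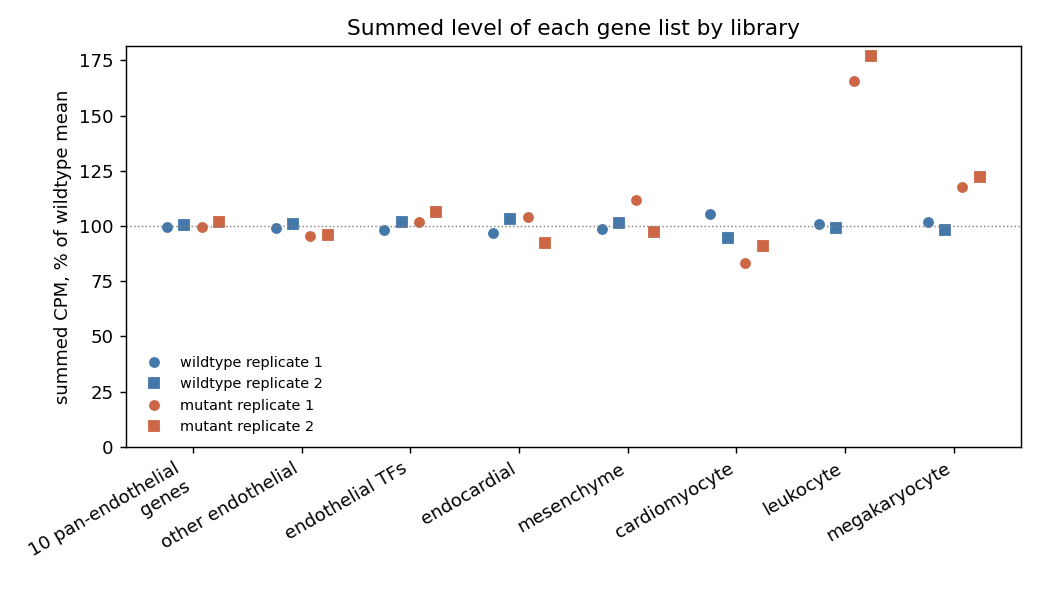
Summed CPM of 8 gene lists in each library, as a percentage of the wildtype mean of that list; blue is wildtype, orange mutant, circles replicate 1 and squares replicate 2. The 10 pan-endothelial genes lie between 99.3% and 102% in all 4 libraries, and the leukocyte markers at 166% and 177% in the mutant libraries.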

How the data were processed

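The authors deposited raw counts per gene symbol for 2 wildtype and 2 mutant libraries. The submitters' processing notes name mm10 as the build and Bowtie2, SAMtools, TopHat2, edgeR and HTSeq as tools, without versions; the annotation and the strand setting were not stated. Rows outside genes (no feature, 51.8% to 54.4% of reads; not unique, 16.1% to 17.0%; ambiguous, 0.187% to 0.210%) were left out. The authors' deposited edgeR table holds log2 fold changes and log2 CPM, p-values, a likelihood ratio score and a fold ratio; judged from the counts, its log2 values are wildtype over mutant, and they are printed here with the sign turned.

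The test was edgeR's, version 4.0.16 under R 4.3.3 (TMM, filterByExpr, quasi-likelihood F test, Benjamini-Hochberg adjustment over 14316 genes, threshold 0.05); limma 3.58.1 and DESeq2 1.42.0 were alternatives. Log2 CPM used a prior count of 2. SE and 95% intervals of fold changes came from the F statistic. The scripts were tested on simulated data. A count of 3 reads equals 0.132 to 0.212 CPM, depending on the library, and Poisson intervals cover counting error only, as reads were not tagged by molecule. The 10 genes and all lists were chosen with earlier results of these data known. Named genes were the 10, Smarca4, Nfatc1, and from the endothelial and endocardial lists those past the threshold with or without the block and the 2 of highest CPM. Other lists are given by counts, with Ptprc, Mrc1 and Pf4 named as markers of blood cells. Positions are from GENCODE M21 on mm10.

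The series describes paired mutants and littermates, and both genotypes have replicates 1 and 2. Across genes, which are no independent replicates, deviations from the group means correlated at 0.144 within a number. Against the authors' log2 fold changes the largest difference over 11504 genes was 0.124 with the block and 2.81 without it (medians 0.00397 and 0.00486), so the numbers were read as pairs. The main test was fitted on genotype only and does not use this pairing. Its p-values, intervals and calls are therefore unpaired, and the blocked fit gives the paired ones. Of all genes the main test called 9 and the blocked fit 127.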

Additional observations from a re-analysis of the deposited data

How the results depend on the processing

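The log2 fold changes of the 10 genes were taken under 15 other settings, which gave 149 values. Sox18 had none under the filter of CPM 5 in 2 libraries. The setting with a threshold of 0.10 used the main fit again, so its log2 values, counted among the 149, could not change. Of these, 142 kept their direction and their side of the threshold. With all 4 libraries, in 11 settings that include the threshold of 0.10, 0 changed sign. With 1 library left out, 6 did: Emcn became 0.020 when wildtype replicate 1 was left out and 0.32 when mutant replicate 1 was, Cldn5 0.061 when wildtype replicate 2 was and 0.085 when mutant replicate 2 was, and Cdh5 -0.041 and Sox17 0.11 without mutant replicate 1. The leave-one-out ranges were -0.45 to 0.32 for Emcn, -0.40 to 0.085 for Cldn5, -0.041 to 0.067 for Cdh5, -0.34 to 0.11 for Sox17 and -0.80 to -0.37 for Plvap. Plvap alone crossed the threshold, without mutant replicate 1 (-0.72, edgeR adjusted p = 0.0388), so that the count of called members ranged from 0 to 1; over its other settings the adjusted p ran from 0.102 to 1.00. In such fits the single library of a genotype is taken to vary as the other genotype does. The cause was not tested. The block changed no call for the 10 genes; with it Plvap was at -0.59 (adjusted p = 0.246). Over all genes the count of 9 calls (8 higher, 1 lower) became 127 with the replicate block, 236 with no low count filter, 62 with DESeq2, 30 with DESeq2 and the replicate block, 171 with the likelihood ratio test and 24 at a threshold of 0.10, and with 1 library left out 6 (wildtype replicate 1), 3 (wildtype replicate 2), 180 (mutant replicate 1) or 443 (mutant replicate 2). Low read numbers limit Sox18, Cldn5 and Sox17 most.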

Other observations

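Beside Mmrn2 and Cd93, the endothelial receptor gene Clec14a was lower in both mutant libraries; it was picked after its values were seen. Clec14a encodes a C-type lectin receptor of the same group as CD93, and multimerin-2, the product of Mmrn2, is known as a ligand of both. Clec14a was at 118 and 97.3 CPM in the wildtype libraries and at 72.9 and 64.5 CPM in the mutant ones, a log2 fold change of -0.65 ± 0.15 (SE). Its edgeR adjusted p was 0.221, 0.0753 with the replicate block and 0.0489 by DESeq2. Mmrn2 stood at -0.87 ± 0.14, with 0.0850 by edgeR and 3.255e-04 by DESeq2, and Cd93 at -0.46 ± 0.12, with 0.374 and 0.195. In all 3 genes both mutant libraries lay below both wildtype libraries, which 16.3% of all genes tested did.

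Among endothelial genes with higher values, Edn1, which encodes endothelin-1, was at 10.5 CPM in each wildtype library and at 20.03 and 16.8 CPM in the mutant ones (edgeR adjusted p = 0.210, likelihood ratio test 0.0193), and Bcl6b, an endothelial zinc finger factor, at 29.1 and 32.6 CPM against 42.6 and 46.8 CPM (edgeR adjusted p = 0.443). Both were also picked after their values were seen. Edn1 was not called by the blocked fit, DESeq2 or limma-voom, and the likelihood ratio test called 1.19% of all genes tested. Bcl6b was called by none of these tests.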
